A study of Mus musculus with 45 samples.

Results

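Cluster C8 is one of the submitters' clusters of single nuclei from Ter119+ erythroblasts, the haemoglobin-making precursors of red cells. Its KO nuclei, taken by the cluster and genotype listed for each nucleus, numbered 2020 of the 34073 nuclei in the deposited table and of 14399 KO nuclei. KO replicates 1, 2 and 3 gave 749, 596 and 675 of them, and the 3 WT libraries together gave 12. They were compared with 3 other clusters of KO nuclei in the same libraries: C10 (2972 nuclei), C5 (1698) and C2 (7070). The submitters' class was Int, read here as intermediate, for 2017 of the C8 KO nuclei, Early for 2 and Late for 1. Over both genotypes C10 and C5 were mostly of class Int (2967 of 2974 and 2305 of 2326 nuclei) and C2 mostly of class Late (7223 of 7260).

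The libraries came from mice with a Stag2 KO (written also as ∆ in the labels) or a WT Stag2, 3 libraries each. The labels give the same interval for both genotypes, 6 to 8 weeks from the last pIpC injection to sampling. Stag2 is a subunit of cohesin, the ring-shaped complex that folds chromatin into loops. Ter119+ erythroblasts were sorted, and their nuclei went into 10x Genomics multiome libraries, of which the accessibility (ATAC) part was analysed. The Cre line, strain, sex, age and any pooling of animals were not given in the sources used here. The labels do not say that replicates came from separate animals, so spreads between libraries may be technical.

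Erythroblasts pass from Kit-bearing progenitors, in which Gata2 and Myc are active, to cells in which Gata1 and Klf1 drive globin, heme and membrane genes. The later cells stop dividing, condense the nucleus and expel it. Gata1 displaces Gata2 at shared sites along the way, and loss of Gata2 and Kit is a classical sign of it. Tfrc, the transferrin receptor that brings in iron, stays high until late.

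The values are gene scores, a signal that sums ATAC fragments over and around a gene. They report accessibility and not RNA. For each library and cluster the scores were averaged over nuclei and rescaled to a sum of 1000000 over genes. Differences are on the log2(score + 1) scale, taken within a library, and given as mean ± SD over the 3 KO libraries. A gene was said to stand apart where the difference was at least 0.5 in size and of one sign in each of the 3 libraries. No p-value is given for gene scores between clusters, because the clusters were defined on these same nuclei. The deposited scores were already scaled to a sum near 10000 in each nucleus. A mean over nuclei does not by itself show whether more nuclei have an open gene or each such nucleus has a higher score.

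Promoters of 4 genes on which the later comparisons turn are shown, since the start of a gene lies inside the region that its score covers. Each run is the 250 bases before the start, 5′ to 3′ on the gene's strand, from RefSeq on GRCm38.p6. Capitals mark the word AGATAA and its variants AGATAG or TGATAA or TGATAG, on either strand and with overlaps allowed, which are forms of the sequence that GATA factors bind. Gata2 (chr6:88193641-88193890, plus strand) and Gfi1b (chr2:28621983-28622232, minus strand) had higher scores in C8 than in C2. Hba-a1 (chr11:32283422-32283671, plus strand) and Epb41 (chr4:132075314-132075563, minus strand) had lower scores.
Gata2: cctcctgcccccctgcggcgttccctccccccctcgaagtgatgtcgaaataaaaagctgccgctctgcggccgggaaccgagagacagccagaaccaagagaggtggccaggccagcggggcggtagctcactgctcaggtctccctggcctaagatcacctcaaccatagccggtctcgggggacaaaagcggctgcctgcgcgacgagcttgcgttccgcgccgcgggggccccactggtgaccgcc
Gfi1b: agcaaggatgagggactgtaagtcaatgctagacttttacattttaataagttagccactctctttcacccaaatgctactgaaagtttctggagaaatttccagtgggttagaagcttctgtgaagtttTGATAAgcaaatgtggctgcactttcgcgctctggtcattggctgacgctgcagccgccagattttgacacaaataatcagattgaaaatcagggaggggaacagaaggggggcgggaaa
Hba-a1: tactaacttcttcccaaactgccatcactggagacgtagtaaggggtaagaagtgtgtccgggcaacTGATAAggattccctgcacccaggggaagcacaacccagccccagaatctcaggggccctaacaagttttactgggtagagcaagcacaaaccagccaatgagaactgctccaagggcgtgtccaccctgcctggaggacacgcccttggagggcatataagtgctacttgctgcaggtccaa
Epb41: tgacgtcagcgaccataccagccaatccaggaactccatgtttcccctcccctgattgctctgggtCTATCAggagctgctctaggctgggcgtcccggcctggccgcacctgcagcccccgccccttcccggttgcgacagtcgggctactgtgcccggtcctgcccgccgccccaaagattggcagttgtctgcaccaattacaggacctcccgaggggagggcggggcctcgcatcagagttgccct
The Gfi1b run holds TGATAA from 120 bases before the start, the Hba-a1 run TGATAA from 183 bases and the Epb41 run CTATCA from 184 bases before it, and the Gata2 run holds none of these letters. Of 32851 promoters in the RefSeq table, 26.5% held such a word in the same window. Of the 5216 genes higher in C8 than in C2, 3701 had a listed promoter and 23.8% of these held a word, beside 19.3% of the 467 matched genes that were lower and 21.9% of 13668 matched genes tested. The word was therefore about as frequent in the higher genes as in all genes.

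C8 made up 15.4%, 12.9% and 13.7% of the nuclei of KO replicates 1, 2 and 3 (95% Wilson intervals 14.4% to 16.5%, 12% to 13.9% and 12.8% to 14.7%, which cover counting error only). The mean was 14.0% ± 1.28 (SD, n = 3), and 6.91% among nuclei with a doublet enrichment of at most 1, a measure described with the quality of the nuclei. In the WT libraries it was 0.0291%, 0.137% and 0.0286%, from 2, 8 and 2 nuclei. Among Int nuclei C8 took 31.5%, 29.1% and 28.1% of each KO library. Because clusters can themselves split by genotype, these shares are a description and no test was made. A KO against WT comparison within C8 could not be made from 12 WT nuclei. Of 2016 barcode sequences among the C8 KO nuclei, 4 occurred in C8 of more than 1 KO library.

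C8 nuclei were the deepest of the 4 KO clusters. The median nucleus held 20901, 21520 and 21238 fragments in KO replicates 1, 2 and 3, beside 15244, 14911.5 and 16077 in C10, 5033.5, 4940 and 4745 in C5, and 6091.5, 6144 and 6594 in C2. Depth varied widely inside C8, from 10852 fragments at the 5th percentile to 38719 at the 95th. The share of fragments in promoters was lowest in C8, at 39.0%, 39.7% and 40.1%, and it was 45.6% to 46.8% in C10, 43.9% to 45.7% in C5 and 48.3% to 49.8% in C2. Enrichment at transcription start sites was 27.3 ± 0.540 in C8 and between 31.4 and 33.5 in every library of the other clusters. Peaks held 52.2% ± 0.510 of fragment ends in C8 and 57.4% ± 0.675 in C10. Each of these differences had one sign in 3 of 3 libraries, with an exact sign-flip permutation p of 0.25 (two-sided), the smallest that 3 libraries allow, and 0.273 adjusted over 24 comparisons.

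Doublet enrichment, a simulated measure of how much a nucleus resembles a mixture of 2, did not separate C8 from C10. Its medians were 1.43, 1.51 and 1.31 in C8 and 1.0, 1.71 and 1.57 in C10 (exact sign-flip permutation p = 1.0). In C5 they were 0.66, 0.91 and 0.71, and in C2 0.60, 0.83 and 0.80. Doublet enrichment was at most 1 in 24.6% of C8 nuclei, 25.3% of C10, 68.6% of C5 and 62.8% of C2. Both deep clusters thus had higher values than both shallow ones. Whether mixed nuclei contribute to C8 was not tested.

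**Figure D1:**
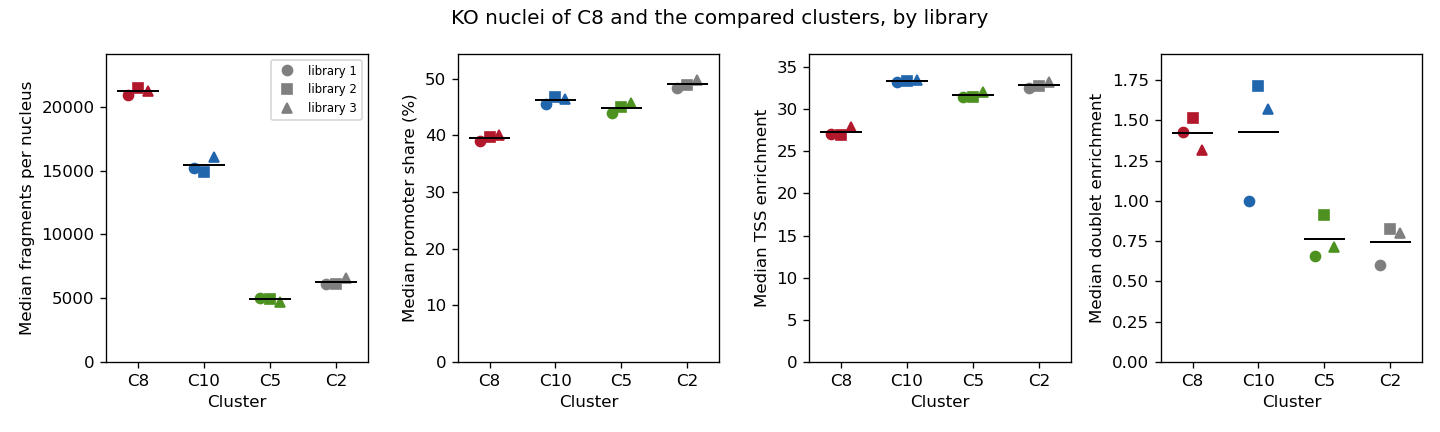
Medians per nucleus of fragments, promoter share (%), enrichment at transcription start sites and doublet enrichment for the KO nuclei of C8, C10, C5 and C2. Each symbol is 1 library and each line the mean of 3; C8 has the most fragments (20901 to 21520) and the lowest promoter share (39.0% to 40.1%).

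Gata1 and Tfrc, given with Kit as markers of the cluster, and Klf1 were open in C8 but did not set it apart from C10 or C5. Gata1, the master regulator of the lineage (chrX:7959260-7976574), had scores of 78.8, 84.5 and 83.1 in C8, 75.2, 76.5 and 81.0 in C10, and 71.1, 83.8 and 88.9 in C5. It had 62.0, 63.3 and 68.4 in C2, all below C8, although the difference of 0.34 ± 0.07 did not reach 0.5. Tfrc (chr16:32608896-32632794) had 143, 143 and 148 in C8 and 146, 141 and 147 in C10, which overlap. Klf1, an activator of globin and membrane genes, had 213, 230 and 219 in C8 and 217, 223 and 232 in C10. In C2 Tfrc had 139.9, 141 and 146 and Klf1 177, 189 and 199.6, and the differences of 0.03 and 0.23 did not stand apart either. A score above 0 was found in 84.0% of C8 nuclei for Gata1 and 96.9% for Tfrc. Such shares follow depth (Pearson 0.987 across nuclei between log fragments and log genes above 0), so they do not compare clusters. By their scores Gata1, Tfrc and Klf1 did not stand apart from C10, C5 or C2. Every Gata1 and Klf1 score of C8 and C10 lay above those of C2, while the Tfrc scores overlapped. The Klf1 difference from C2 was as low as -0.087 among the alternatives.

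Kit, the receptor for stem cell factor (chr5:75574987-75656722), was low in C8. Its scores were 16.9, 16.3 and 16.6, beside 14.1, 14.2 and 14.8 in C10 and 15.4, 15.1 and 9.13 in C5. The difference from C10 turned from 0.20 to -0.17 after quantile normalization, -0.08 with nuclei matched on fragments and -0.22 with the trend on the mean score removed, so no direction is read from it for Kit, C8 against C10 in KO. C2 was lower still, at 6.95, 8.50 and 7.48, and this was the only one of the 3 comparisons in which Kit stood apart (1.03 ± 0.15). It no longer did so after quantile normalization, with matched nuclei or with the trend removed, where the difference was as low as 0.40. KO nuclei of C7, a cluster mostly of class Early, had 66.1, 65.2 and 58.6. They numbered 326, 26 and 17 in the 3 libraries, so replicates 2 and 3 rest on few nuclei. The Kit scores of C8 were thus near those of the Int clusters and below those of the Early one.

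Stag2 itself had scores of 60.3, 65.4 and 59.1 in C8, inside the 54.6 to 68.6 of the other 3 clusters. The WT nuclei of C9, an Int cluster, had 62.7, 63.5 and 65.9. A score over the whole gene does not show whether part of it is deleted, so it does not check the genotype. Its paralog Stag1, which can take its place in cohesin, had 133, 133 and 137 in C8, 124, 125 and 124 in C10, and 129, 132 and 144 in C5. In C2 it had 56.1, 60.0 and 58.9, and C8 stood 1.19 ± 0.05 above it.

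Compared with C10, the other Int cluster almost wholly of KO nuclei, C8 had more open Gata2, Myc and Ikzf2, genes of early erythroid and progenitor cells. Of 19735 genes tested, 1613 stood higher in C8 (8.17%) and 22 lower (0.111%), 8.28% in all, and the median difference over all genes was 0.12. Without KO replicate 1 the 2 counts summed to 2656 for C8 against C10 in KO. Of the 15 tested genes of the early erythroid and progenitor list, 3 stood higher (Gata2, Myc and Ikzf2) and none lower, with a median of 0.57 against the 0.12 of all genes. Every one of the 15 lay above the median of all genes. The 8 lists of markers of other cell types had medians of 0.28 to 0.59 against C10, so a median above that of all genes was not particular to the early list. Only the mast cell and basophil list (5 genes tested) reached the 0.57 of the early list, and the next highest median was 0.46. With the trend on the mean score removed (described further on), the early list had 0.35 and the marker lists -0.01 to 0.22. The genes were chosen with earlier results of these data known.

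Gata2 (chr6:88193891-88207032), the GATA factor of progenitors, had scores of 73.9, 66.4 and 66.1 in C8 and 44.3, 39.0 and 40.4 in C10. The groups did not overlap, and the difference was 0.73 ± 0.03. Myc (chr15:61985341-61990361), a driver of growth and division, had 65.1, 58.6 and 58.2 in C8 and 29.0, 25.1 and 31.0 in C10, a difference of 1.07 ± 0.16. Ikzf2 (chr1:69531207-69685960), a zinc finger factor of the Ikaros family, had 55.5, 50.3 and 51.0 in C8 and 25.3, 23.3 and 22.9 in C10, a difference of 1.10 ± 0.02. In each of these genes C8 was above C10 in every library and below the Early cluster C7, where Gata2 had 136, 158 and 127 and Myc 154, 167 and 137.

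Other early genes were higher in each library by less than 0.5 in at least 1 of them. Myb, a progenitor factor that falls as red cells mature, differed by 0.37 ± 0.10, Itga4, an integrin of early erythroblasts, by 0.39 ± 0.03, and Gfi1b, a repressor needed for erythroid growth, by 0.38 ± 0.06. Sox4, Cd44 and Lmo4 differed by 0.61 ± 0.10, 0.66 ± 0.23 and 0.68 ± 0.21. None of these 6 stood apart from C10.

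Among 18 erythroid transcription regulators only Bcl11a stood apart from C10 (5.56%, beside the 8.17% of all genes that stood higher). Bcl11a, which silences embryonic and fetal globin genes (chr11:24078056-24173558), had 99.4, 90.0 and 97.7 in C8 and 59.6, 53.1 and 59.6 in C10, a difference of 0.73 ± 0.02. The list's median was 0.15, near the 0.12 of all genes. Among 18 genes of the EPO receptor and STAT5 pathway, by which erythropoietin keeps erythroblasts alive, the neighbouring genes Stat5a and Stat5b stood higher (11.1%, near the 8.17% of all genes). Stat5a had 35.2, 31.5 and 26.8 in C8 and 17.8, 15.2 and 15.5 in C10 (0.90 ± 0.13), and Stat5b differed by 0.66 ± 0.14. These neighbours may share fragments. Epor itself had 127, 130 and 143 beside 140, 141 and 144.

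Genes of the differentiated red cell did not stand apart between C8 and C10. None of 9 globin, 11 heme synthesis, 12 iron, 20 red cell membrane or 18 late maturation genes did so in either direction. Over all genes 8.17% stood higher and 0.111% lower. Calls depended on score, with 826 higher genes in quartile 2 of the mean score and 20 in quartile 4, the highest. The counts of 0 are therefore not read as a result about these lists. The medians were -0.10 for globins, -0.09 for heme synthesis and -0.18 for late maturation and clearance, all below the 0.12 of all genes. Those of globins and heme synthesis turned to 0.060 and 0.038 with the trend on the mean score removed (described further on), and that of late maturation stayed below 0. Hbb-bs, the adult beta globin, had 224, 240 and 236 in C8 and 246, 274 and 278 in C10 (-0.19 ± 0.05). Gabarapl2, an autophagy gene used in clearing organelles, differed by -0.39 ± 0.04. In 30 replication and mitosis genes only Tyms, which makes thymidylate, stood higher (3.33%, 0.78 ± 0.10), and the list's median was -0.03.

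The highest single loci against C10 were led by Syna, a placental fusion protein gene of retroviral origin, at low scores. Syna (chr5:134557254-134560171) had 9.56, 9.31 and 6.66 in C8 and 2.87, 1.64 and 2.72 in C10 (1.49 ± 0.46). Cbx8 (chr11:119038436-119040913), a subunit of the Polycomb repressive complex PRC1, had 41.8, 36.0 and 40.7 in C8 and 13.9, 12.7 and 13.9 in C10 (1.48 ± 0.04). H2afy3 (chr15:62217541-62219451), which lies downstream of Myc, had 46.7, 45.1 and 43.7 beside 19.0, 15.5 and 15.3 (1.40 ± 0.12). Aqp8 (chr7:123462294-123468003), a water and peroxide channel, had 33.1, 32.3 and 26.8 beside 13.7, 11.5 and 11.2 (1.27 ± 0.13). Spdye4b, Gas8, Gfra4 and Scrt1 differed by 1.42, 1.36, 1.29 and 1.24, with C8 scores of 33.1 or less. For Cbx8 the groups lay far apart, and C7 was higher again, at 123, 104 and 131.

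The lower loci named by rank had low scores. Wnt5a, a secreted Wnt ligand (chr14:28505473-28525515), had 3.93, 5.07 and 2.52 in C8 and 6.30, 8.88 and 6.14 in C10 (-0.76 ± 0.23). Adgrb3, an adhesion receptor of neurons (chr1:25067476-25829707), had 23.0, 18.2 and 20.5 beside 34.9, 29.8 and 32.0 (-0.63 ± 0.05). Stk32b, a kinase, differed by -0.70 ± 0.19. Rprl1, Defb7, Nlrp5-ps, Stk32a and Zbbx differed by -0.71, -0.69, -0.66, -0.60 and -0.59, with C8 scores of 8.67 or less. Among nuclei with a doublet enrichment of at most 1, 7 of these 8 loci (all but Defb7) no longer stood apart, and Wnt5a differed by -0.13, Adgrb3 by -0.39 and Stk32a by 0.47. With a pseudocount of 5 only Adgrb3 of the 8 still stood apart.

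**Figure D2:**
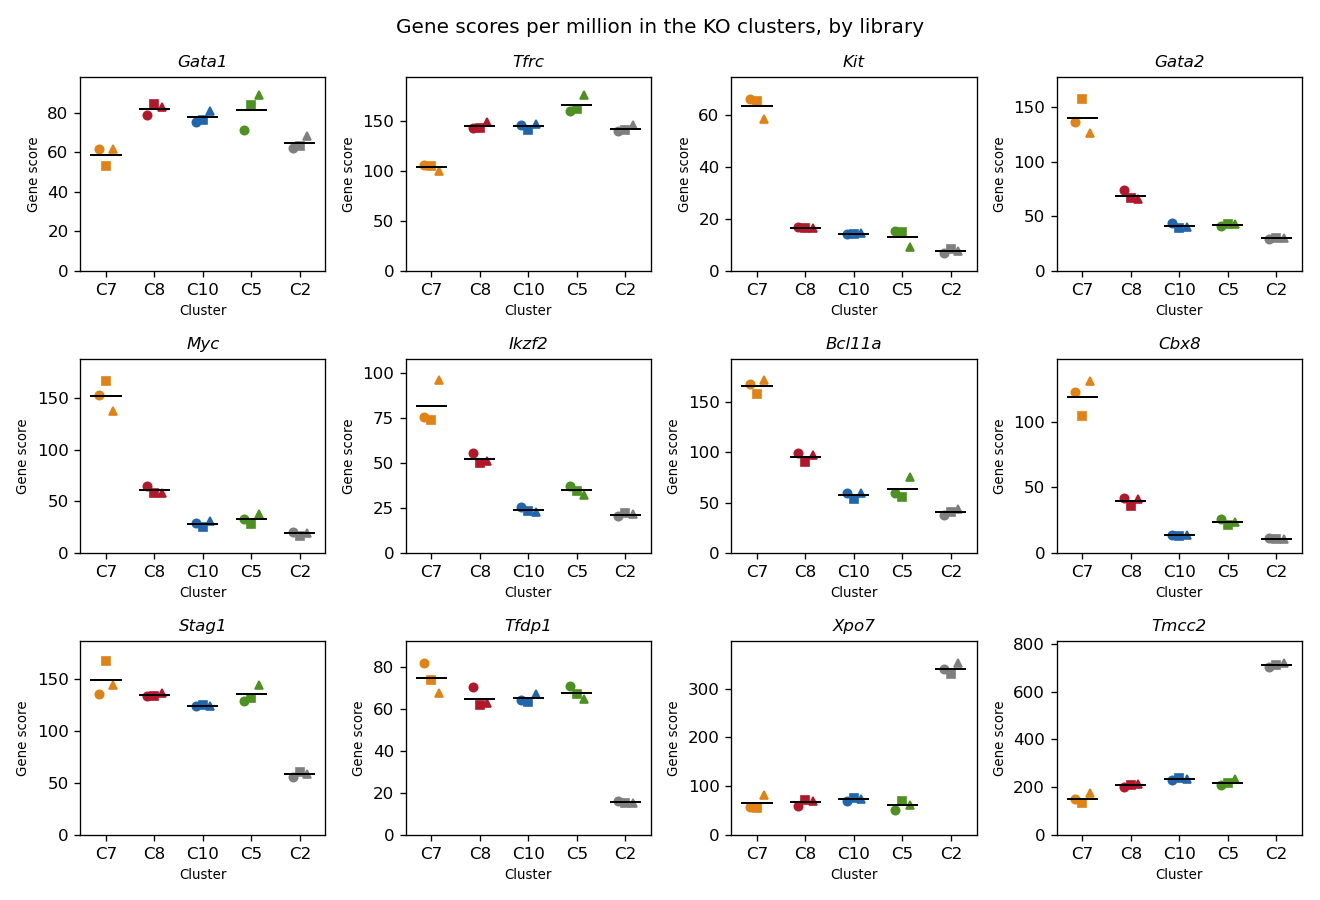
Gene scores, per 1000000 summed over genes, of 12 genes in the KO nuclei of C7 (Early), C8, C10 and C5 (Int) and C2 (Late). Symbols are libraries 1 (circle), 2 (square) and 3 (triangle) and lines their mean; Gata2, Myc, Ikzf2, Bcl11a and Cbx8 lie between C7 and C10 in C8, while Xpo7 and Tmcc2 are high in C2.

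The differences moved with the level of a gene. Genes with low scores were mostly higher in C8 and genes with high scores slightly lower, with a Spearman rank correlation across genes of -0.416 between difference and mean score against C10, -0.347 against C5 and -0.672 against C2. Genes are not independent replicates, so these are descriptions. The lower promoter share of C8 moves with this pattern, and its part in the counts was not tested. When the median difference of genes of like score was taken off in each library (50 bins, chosen after seeing the data), 285 genes stood higher than C10 (1.44%) and 497 lower (2.52%). Taking the median off each bin removes a general surplus of higher genes by construction, so its loss here is not read as a result. With nuclei matched on fragments most genes apart were still higher, as given further on. Of the 1613 higher genes 257 stood apart either way. The 22 lower ones did too, but taking off a median above 0 lowers genes of low score by construction, and with a pseudocount of 5 or a mean score of at least 20 only 2 genes stood lower.

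Gata2, Myc, Ikzf2, Bcl11a, Cbx8, H2afy3 and Aqp8 were among the 257, and each of these 7 stood apart from C10 in all 12 alternatives run. Changing the filter or leaving out a library cannot undo a call, so only the other alternatives bear on this. With the trend removed, Gata2 differed from C10 by 0.73, Myc by 1.02, Ikzf2 by 1.01, Bcl11a by 0.79, Cbx8 by 1.16 and H2afy3 by 1.19. Cdk6, a cell cycle kinase of progenitors, stood higher with the trend removed (0.64) but not by the unadjusted difference. Stat5a, Stat5b and Tyms no longer stood apart, at 0.61, 0.52 and 0.38. The median of the early erythroid and progenitor list was 0.35, and that of late maturation -0.08.

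**Figure D3:**
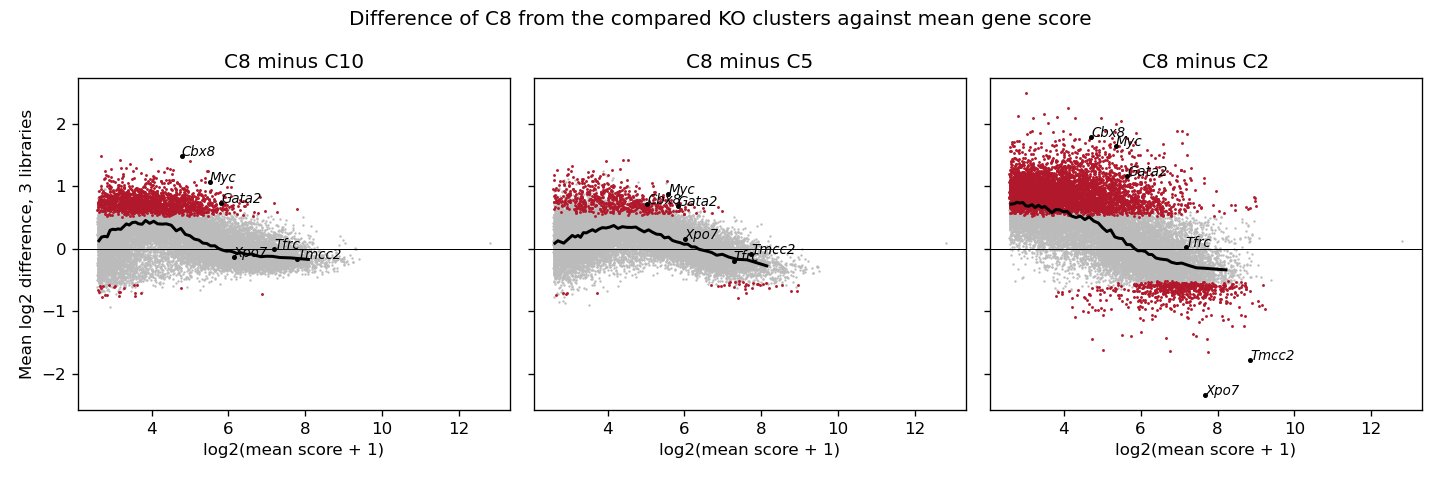
Mean log2 difference of C8 from C10, C5 and C2 (vertical axis) against log2 of the mean gene score + 1 (horizontal axis), 1 point per gene tested. Red points stand apart in 3 of 3 libraries and the black line is the median in 50 bins of equal size; the line falls from above 0 at low scores to below 0 at high scores in each panel.

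C5 is an Int cluster that holds both genotypes, and its KO nuclei are shallow. Against it 638 of 19830 genes stood higher in C8 (3.22%) and 36 lower (0.182%), 3.4% in all. For C8 against C5 in KO the total of 674 was 1481, 1254 and 1331 without replicate 1, 2 and 3. Gata2 had 41.1, 43.0 and 42.8 in C5, and C8 stood above it by 0.69 ± 0.12. Myc, Ikzf2 and Myb stood higher by 0.87 ± 0.23, 0.57 ± 0.06 and 0.72 ± 0.15, which made 4 of 15 early genes, with a median of 0.41 beside 0.15 over all genes. The 8 lists of markers of other cell types had medians of 0.13 to 0.71 against C5. Only the mast cell and basophil list (5 genes tested) exceeded the 0.41 of the early list, and the next highest median was 0.38. With the trend removed the early list had 0.33 and the mast cell and basophil list 0.36. Of 12 alternatives, Gata2 stood apart from C5 in 9, Myc in 7, and Ikzf2 and Myb in 6. These counts include changed filters and left-out libraries, which cannot undo a call. Gata2 lost its call after centring, after quantile normalization and with the trend removed. Myc lost it also with matched or weighted nuclei, and Ikzf2 and Myb in all of these and with a pseudocount of 5. Cbx8 had 25.7, 21.4 and 23.6 in C5 (0.72 ± 0.04). With the trend removed, 96 genes stood higher (0.484%) and 67 lower (0.338%). With nuclei matched on fragments the direction turned, and of 1530 genes 15.6% stood higher. None of the 15 early genes stood apart with the trend removed, although Gata2 and Myc still differed by 0.57 and 0.69 on average.

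Both Int comparisons thus named Gata2, Myc and Ikzf2, but the comparisons share the C8 values and are not independent. The genes highest against C5 were Gfra4 (1.41 ± 0.56), Mtln (1.40 ± 0.66), Tlr12 (1.32 ± 0.31), Skida1 (1.28 ± 0.51) and Asic4 (1.28 ± 0.36). With nuclei matched on fragments none of these 5 stood apart, and Gfra4 differed by 0.46. Tlr12, a receptor of the innate immune system (chr4:128615446-128618619), had 10.9, 9.07 and 12.9 in C8, 4.96, 2.92 and 3.55 in C5 and 3.90, 3.90 and 5.90 in C10.

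Of the 5 lower loci named against C5, 3 had high scores. Dohh, an enzyme that modifies the translation factor eIF5A (chr10:81384428-81391553), had 367, 382 and 380 in C8, 590, 601 and 619 in C5 and 473, 497 and 471 in C10. C8 was the lowest of the 4 clusters in every library, with a difference of -0.68 ± 0.03 from C5 and -0.91 ± 0.09 from C2. Gtpbp4, a factor of ribosome assembly, had 125, 121 and 125 beside 213, 196 and 232 (-0.78 ± 0.10). Slc25a41, a mitochondrial carrier gene, had 144, 149 and 147 beside 229, 242 and 246 (-0.70 ± 0.04). Dpysl3 and Vmn2r100 differed by -0.70 and -0.70, at C8 scores of 5.49 or less. Between nuclei matched on fragments, of which only 109, 58 and 78 per library could be had, Gtpbp4 differed by 0.061 (Gtpbp4, C8 against C5 in KO), Dohh by -0.25 and Slc25a41 by -0.19, so none of the 3 kept a difference of 0.5.

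No globin, heme, iron, membrane, late maturation or ribosome assembly gene of the lists stood apart from C5, beside 3.22% of all genes higher and 0.182% lower. Hoxa9, a homeobox factor of stem cells, stood higher than in C10 (0.92 ± 0.19), in C5 (1.11 ± 0.35) and in C2 (1.0 ± 0.20), with scores of 14.0, 13.4 and 10.8 in C8. It lost this against C10 and C2 after quantile normalization, with matched nuclei and with the trend removed (0.56 with the trend removed against C10, 0.18 with matched nuclei against C2), and against C5 with matched or weighted nuclei (as low as 0.72). Phlda3, a p53 target that restrains Akt signalling, also stood higher in all 3 comparisons by the unadjusted differences. Against C10 and C5 it lost this with a pseudocount of 5, after centring or quantile normalization and with matched nuclei. It also did so with the trend removed (0.38 and 0.40), and against C10 with weighted nuclei. Against C2 Phlda3 no longer stood apart after quantile normalization or with matched nuclei (0.45 in the latter). It had 43.8, 32.8 and 36.5 in C8, 26.9, 22.3 and 24.8 in C10, 29.7, 18.4 and 22.7 in C5 and 16.6, 16.9 and 19.1 in C2. The other 13 tested genes of the p53 and survival list did not stand apart from C10 or C5.

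Against C2, the Late cluster, C8 had more open progenitor genes and less open globin and late maturation genes. Of 18483 genes, 5216 stood higher in C8 (28.2%) and 601 lower (3.25%), 31.5% in all, with a median over all genes of 0.33. The early erythroid and progenitor list had 12 of 15 genes higher and none lower, with a median of 1.09. Of 68 tested markers of other cell types 26 were higher (38.2%), and their 8 lists had medians of 0.38 to 0.89. The late maturation and clearance list had 11 of 18 lower and 1, Epas1, higher (not with the trend removed), with a median of -0.65. Of 9 globin genes 5 stood lower, with a median of -0.67. When the differences were centred on their median, most genes apart from C2 were lower, as given further on. With the trend removed, 1297 genes stood higher (7.02%) and 637 lower (3.45%). Among them were 8 early genes that stood higher, and 7 late maturation genes and 1 globin gene (Hba-a2) that stood lower, and the medians were 0.69, -0.33 and -0.51. The 8 lists of markers of other cell types then had medians of -0.31 to 0.31. The B cell, megakaryocyte, and mast cell and basophil lists kept 1 higher gene each and the other marker lists none.

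Xpo7, a nuclear export receptor needed for the condensation and loss of the erythroblast nucleus (chr14:70654246-70766628), showed the largest difference among the loci lower than in C2. It had 59.6, 71.9 and 69.0 in C8 and 340, 329 and 353 in C2 (-2.34 ± 0.16). C10 had 70.4, 75.4 and 72.8, and C7 57.0, 55.5 and 82.8, so C8 shared this low level with the Int and Early clusters. Tmcc2 (chr1:132356315-132391386), a membrane protein gene of erythroid cells, had 201, 207 and 214 beside 702, 710 and 722 in C2 (-1.77 ± 0.02). Tmem131l, Tbcel and Fam229a stood lower by -1.64, -1.63 and -1.61. None of these 5 stood apart from C10 or C5.

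Among clearance genes, Bnip3l, the receptor for mitochondrial removal, had 99.8, 100 and 105 in C8 and 183, 182 and 188 in C2 (-0.85 ± 0.02). Ulk1, a kinase that starts autophagy, differed by -0.97 ± 0.03, and Bpgm, which makes the oxygen-release metabolite of red cells, by -1.16 ± 0.08. Trim58, a ligase of nuclear expulsion, had 118, 130 and 123 beside 207, 204 and 201 (-0.72 ± 0.08). Bcl2l1, the survival gene of late erythroblasts, had 166, 184 and 184 beside 359, 386 and 383 (-1.08 ± 0.03). Hba-a1 had 120, 142 and 128 beside 227, 244 and 238 (-0.86 ± 0.07), and Hba-a2 differed by -0.95 ± 0.00. With the trend removed Hba-a1 and Trim58 differed by -0.56 and -0.41 and no longer stood apart, while Bnip3l, Ulk1, Bpgm, Bcl2l1 and Hba-a2 stood lower in all 12 alternatives. The embryonic Hbb-y had 278, 304 and 299 beside 358, 368 and 339 and did not stand apart. The globin copies are near-identical and lie in tight clusters, so reads and fragments may be split or shared among them.

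Of 20 membrane genes 3 stood higher than in C2 (15%, beside 28.2% of all genes) and 2 lower (10.0%, beside 3.25%). Epb41 (protein 4.1) had 247, 264 and 250 in C8 and 545, 545 and 503 in C2 (-1.06 ± 0.07), and Slc4a1 (band 3) differed by -0.65 ± 0.05. Slc4a1 no longer stood apart after quantile normalization, with matched nuclei or with the trend removed (-0.30 in the last). Sptb (beta spectrin) had 288, 291 and 295 beside 179, 177 and 182 (0.70 ± 0.02), and Aqp1, the red cell water channel, had 223, 226 and 220 beside 95.5, 85.7 and 89.3 (1.30 ± 0.08). The list's median was 0.01, below the 0.33 of all genes.

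Of the early genes, Gfi1b had 168, 169 and 169 in C8 and 61.1, 66.1 and 72.9 in C2 (1.33 ± 0.12), Gata2 29.6, 30.6 and 30.2 in C2 (1.16 ± 0.11) and Myc 20.5, 16.3 and 19.8 in C2 (1.64 ± 0.14). Sox4 and Ikzf2 stood higher by 1.5 ± 0.22 and 1.26 ± 0.13, Sox4 not with matched nuclei (0.73). Bcl11a and Ikzf1 were higher among the regulators, by 1.22 ± 0.13 and 1.04 ± 0.07, Ikzf1 not with matched nuclei (0.60). Of 30 replication and mitosis genes, 8 stood higher (26.7%, beside the 28.2% of all genes) and none lower, with a median of 0.25, below the 0.33 of all genes. Cdk1, the kinase of mitotic entry, had 74.7, 72.2 and 78.3 in C8, 36.1, 35.8 and 36.4 in C2 and 80.0, 77.1 and 85.2 in C10. Tfdp1, the partner of the E2F factors (chr8:13338751-13378448), had 70.4, 61.8 and 62.9 in C8 and 16.1, 15.4 and 15.3 in C2 (1.99 ± 0.06). Its C10 scores of 64.6, 63.5 and 67.4 overlapped those of C8. In the cohesin list Stag1 and Pds5a, a regulator of cohesin release (1.06 ± 0.09), were the 2 of 11 that stood higher. That is 18.2%, below the 28.2% of all genes, and the list's median of -0.05 was below the 0.33 of all genes.

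The remaining loci highest against C2 were Gdpd2 (2.48 ± 0.39), Mcpt1 (2.11 ± 0.28), Zdhhc15 (2.08 ± 0.17) and Gfod1 (2.04 ± 0.02). Gfod1 (chr13:43195519-43304172) had 71.3, 68.0 and 73.1 in C8, 16.7, 16.0 and 16.7 in C2 and 45.6, 43.2 and 47.7 in C10. Mcpt1, a mast cell protease gene, had 19.3, 28.7 and 18.7 in C8 and 28.8, 42.6 and 25.9 in C7. Gdpd2 apart, these loci stood higher than in C10 as well. Of 20 interferon genes tested, Ifit1, Oasl2 and Rsad2 stood lower than in C2 (-0.84, -0.93 and -1.05), Irf2 and Irf8 higher (0.67 and 0.62), and none stood apart from C10 or C5. That is 15% lower and 10.0% higher than in C2, beside 3.25% and 28.2% of all genes. Irf8 stood apart in 5 of 11 alternatives (as low as 0.03), Irf2 in 9 of 12, Ifit1 in 11 of 12, and Oasl2 and Rsad2 in all 12. Apart from changed filters and left-out libraries, which cannot undo a call, Irf8 kept its call only with low doublet enrichment. In the EPO and STAT5 list 7 of 18 stood higher than in C2 (38.9%, beside 28.2% of all genes), among them Stat5a (0.84 ± 0.25) and Socs2 (1.34 ± 0.39), and Pim1 and Bcl2l1 lower. With the trend removed 3 stood higher and 1 lower, and Stat5a (0.33), Socs2 (0.62) and Pim1 (-0.23) no longer stood apart.

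**Figure D4:**
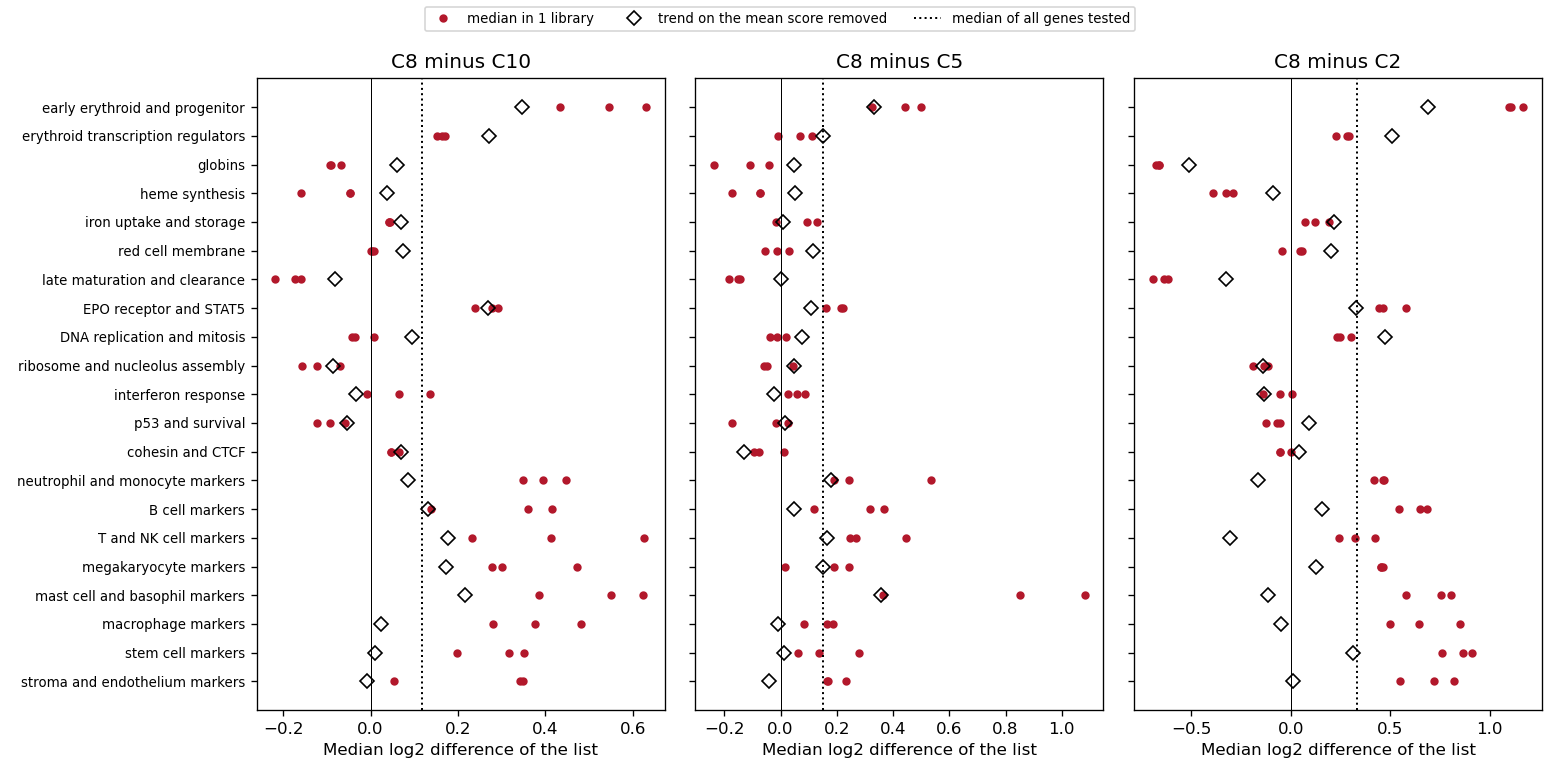
Median log2 difference of each gene list for C8 minus C10, C5 and C2. Red points are the 3 libraries, diamonds the list median with the trend on the mean score removed, and dotted lines the median of all genes (0.12, 0.15 and 0.33); the red points of the early erythroid and progenitor list lie right of the dotted line and those of the late maturation list left of it in each panel.

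No marker of other blood and marrow cells was at 0 in any cluster, and some were as open as Gata1. The megakaryocyte markers Gp9 and Vwf had 115, 137 and 119 and 92.1, 91.2 and 87.6 in C8, and Cebpe, a factor of granulocytes, had 102, 106 and 107. Their summed scores were higher in C8 than in every C10 library for all 8 lists. Genes of low score were mostly higher in C8 whatever their kind, with median differences from C10 of 0.29 and 0.39 in quartiles 1 and 2 of the mean score. The higher sums are therefore not read as a result about these markers. Mast cell and basophil markers (8 genes) summed to 82.9 to 88.7 in C8, 58.4 to 62.7 in C10, 52.0 to 61.9 in C5 and 46.2 to 46.7 in C2. B cell markers (10 genes) summed to 206 to 208 in C8, 162 to 179 in C10 and 125 to 133 in C2. Neutrophil and monocyte markers (15 genes) summed to 296 to 302 in C8, 255 to 263 in C10 and 313 to 341 in C2. Megakaryocyte markers (11 genes) reached 417 to 431 in C8 and 359 to 381 in C10, stem cell markers (10 genes) 358 to 374 and 284 to 318. Egr1 alone made up most of the stem cell sum of C8. Its mean scores were 236 and 261 in C8 nuclei above and not above the median depth of their library.

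T and NK cell (11 genes), macrophage (10) and stroma or endothelium markers (8) summed to 124 to 139, 80.8 to 92.5 and 108 to 116 in C8, and to 95.2 to 113, 65.4 to 71.8 and 83.8 to 89.8 in C10. Of 69 markers tested, 7 stood higher than in C10 (10.1%, beside the 8.17% of all genes): Lyz2, Blnk, Il2rb, Il1rl1, Cma1, Hoxa9 and Pecam1. With the trend removed none of these 7 did, and the list medians against C10 lay between -0.01 and 0.22. Their part in the differences of C8 was not tested.

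C8 was uniform across libraries. Its 3 profiles correlated across 19908 genes at 0.993 (Pearson, log2 scale), the median SD of a gene was 0.077, and 11 genes spanned more than 1. The differences from C10 correlated between libraries at 0.810 to 0.821 across genes, those from C2 at 0.906 to 0.914 and those from C5 at only 0.436 to 0.472. In mean profile C8 was closest to C5 (0.985), then C10 (0.982) and C2 (0.973), as a description across genes.

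Inside C8, nuclei above the median depth of their library (medians 26620.5, 27421 and 27670 fragments) were set beside those at or below it (16358, 17201.5 and 17031.5). Of 19908 genes 143 stood higher in the deeper nuclei (0.718%) and none lower. None of the 143 belonged to any of the 21 lists. Gata2 differed by 0.06 ± 0.02, Myc by 0.12 ± 0.12, Ikzf2 by 0.02 ± 0.05 and Gata1 by -0.07 ± 0.02. The early list's median was 0.06 beside 0.07 over all genes, and macrophage and stem cell markers had 0.32 and 0.22. A score above 0 was found in 76.8% of C8 nuclei for Gata2, 56.3% for Myc and 44.1% for Kit.

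The Early cluster C7 was set beside C8 and C10 after these results were seen. In replicate 1, the library with 326 C7 nuclei, 1419 of the 1613 genes higher in C8 than in C10 (88.0%) were higher again in C7, beside 56.2% of all genes tested. In each of the 3 libraries this held for 67.5% of them and 36.8% of all genes. The median of the 1613 genes was 0.73 for C8 minus C10 over 3 libraries and 1.28 for C7 minus C10 in replicate 1. Over all genes these medians were 0.12 and 0.19. The 1613 genes were chosen as higher than C10, and both differences use the C10 scores, so the 2 medians are no separate evidence. Of the 22 lower genes 20 were lower again in C7 in replicate 1 (90.9%, beside 43.8% of all genes tested). In each of the 3 libraries this held for 16 of them (72.7%, beside 27.1% of all genes). In replicates 1, 2 and 3 C7 had medians of 43439, 52751 and 45933 fragments and promoter shares of 30.6%, 31.1% and 33.0%, so depth and promoter share followed the same order of clusters. Their part was not tested.

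WT libraries share no nuclei with the comparison of C8 and C10. C9 (1835 WT nuclei) and C11 (3607) are 2 Int clusters almost wholly of WT nuclei. The submitters' clusters form one set over nuclei of both genotypes, so the split of C9 from C11 is not independent of that of C8 from C10. WT nuclei of other Int clusters were not used here. The same genes were read in C9 minus C11, a pair chosen after the clusters were seen. The differences correlated across 19735 genes at 0.591 (Pearson) and 0.580 (Spearman), as a description. Of the 1613 genes higher in C8 than in C10, 1181 (73.2%) were above 0 in each WT library, beside 36.3% of all genes, and 513 (31.8%) stood higher in C9 by the same rule, beside 5.71%. Of 1126 genes that stood higher in WT C9 than in C11, 45.6% stood higher in C8 than in C10. Of the 22 lower genes, 15 were below 0 in each WT library, beside 33.9% of all genes.

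Single genes showed the WT pair at their own levels. Myc had 92.1, 104 and 83.8 in C9 and 34.6, 35.5 and 30.4 in C11, a difference of 1.45. Ikzf2 had 76.1, 70.6 and 60.2 beside 27.7, 28.5 and 24.5 (1.32), and Bcl11a 136, 143 and 134 beside 70.7, 73.5 and 69.8 (0.94). Aqp8 and H2afy3 differed by 1.59 and 1.65. Tlr12, 1.11 ± 0.15 higher in C8 than in C10, had 5.95, 7.01 and 2.98 in C9 and 5.21, 6.27 and 3.56 in C11. C9 was also deeper than C11, with median fragments of 19427.5, 17341 and 16659 beside 15318.5, 15501 and 14126, and its promoter share was lower, at 40.3%, 41.6% and 46.2% beside 43.1%, 44.8% and 48.7%. The part of these measures was not tested.

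**Figure D5:**
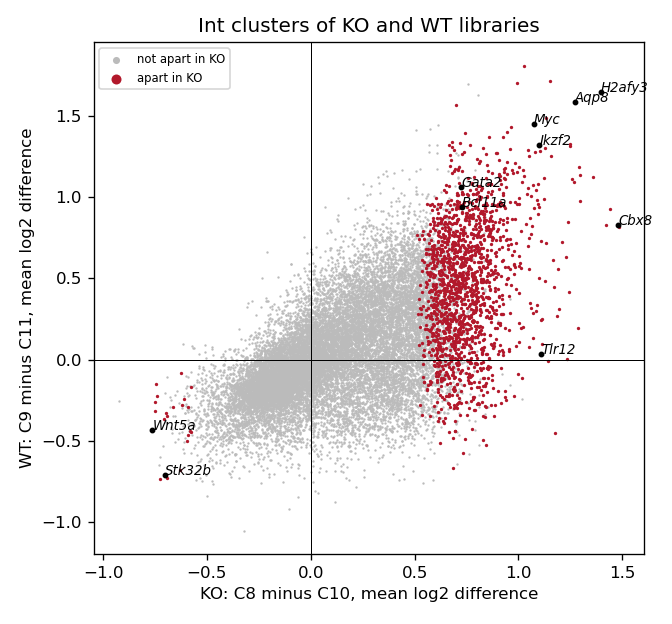
Mean log2 difference of WT C9 from WT C11 (vertical axis) against that of KO C8 from KO C10 (horizontal axis), 1 point per gene, 3 libraries each. Red points stand apart in KO; Myc, Ikzf2, Gata2, Bcl11a, Aqp8 and H2afy3 are high on both axes, and Tlr12 on the KO axis only.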

How the data were processed

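Accessibility of single nuclei was measured in 6 ATAC libraries, 3 KO and 3 WT, of 45 samples in the series. The deposited gene score signal had been scaled by the authors to a sum near 10000 per nucleus (9999.855 to 10000.12 on checking). Cell Ranger and the mm10 build are named per the submitters' processing notes. The other columns (fragments, promoter and peak shares, cluster, class) came from the deposited table of nuclei, whose column names are those of an ArchR project. The whole table of nuclei was given in 2 copies, with 0 values that differed between them. KO libraries held 4857, 4617 and 4925 nuclei and 62592468, 46782673 and 53416419 fragments. WT libraries held 5819 to 6990 nuclei and 61655588 to 66286151 fragments.

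The mean score of each gene per library and cluster was rescaled to 1000000, and kept where the mean over the 6 profiles was at least 5, with a pseudocount of 1 before log2. This scale understates changes of low genes, and neighbouring genes share fragments. No test of gene scores was made between clusters. Quality medians were compared by an exact sign-flip permutation test over 3 libraries, Benjamini-Hochberg adjusted over 24 comparisons. Named genes were the 8 highest and 8 lowest loci against C10, and the 5 highest and 5 lowest against C5 and C2, after genes within 100 kb were merged and predicted, microRNA, small nucleolar RNA and olfactory receptor genes passed over. Gata1, Tfrc, Kit, Gata2, Klf1, Stag2, Stag1 and members of the 21 lists were always included. Gata1, Tfrc and Kit were the markers given for the cluster. Members and lists were chosen with earlier results of these data known. The comparisons of KO with WT in C8 and of that effect with C5 were designed with at least 20 nuclei per library and were not made.

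Alternatives were another pseudocount and filter, no filter, centring, quantile normalization, nuclei matched on fragments, nuclei of low doublet enrichment, weighting by fragments, and leaving out each library. Removing the trend on the mean score was chosen after seeing the data. Changing the filter or leaving out a library cannot undo the call of a gene still tested. The procedure was tested on simulated data. A RefSeq table on GRCm38.p6 held 23863 of the symbols, 23860 of them on the same chromosome, and coordinates are the deposited ones, counted from 1. Python 3.11.15, numpy 2.4.6, pandas 2.3.3, scipy 1.17.1 and matplotlib 3.10.9 were used.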

Additional observations from a re-analysis of the deposited data

How the results depend on the processing

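The count of genes standing apart depended on the scaling. For C8 against C10 in KO (1635) it was 658 with a pseudocount of 5, 524 with a mean of at least 20, 888 after centring, 717 after quantile normalization and 782 with the trend on the mean score removed, an alternative chosen after seeing the data. The share that was higher in C8, 98.7% as reported, was 87.5% after centring, 74.3% with nuclei matched on fragments, 41.6% after quantile normalization and 36.4% with the trend removed. For C8 against C5 in KO (674) it was 265, 285, 376, 152 and 163 in the same order, 1530 with matched nuclei, 1087 with a doublet enrichment of at most 1 and 372 with weighting by fragments. The share higher, 94.7% as reported, was 52.4% after centring, 61.8% after quantile normalization, 15.6% with matched nuclei and 58.9% with the trend removed. For C8 against C2 in KO (5817) it was 3782, 2233, 1892 after quantile normalization, 1278 with matched nuclei and 1934 with the trend removed. The share higher, 89.7% as reported, was 73.5% with a mean of at least 20, 38.7% after centring, 61.2%, 75.6% and 67.1% in the last 3. The cause was not tested.

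Leaving out each library gave 2057 to 2656 genes for C8 against C10 in KO, the highest without replicate 1, 1254 to 1481 for C8 against C5 in KO, where leaving out any 1 library moved the count by over 1.5 times, and 6453 to 6635 for C8 against C2 in KO, since 2 libraries have to meet the rule in place of 3.

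The early erythroid and progenitor median kept its sign in all 12 alternatives. Against C10 (0.57) it was 0.39 after quantile normalization, 0.45 with matched nuclei and 0.35 with the trend removed, 0.46 after centring, 0.69 with low doublet enrichment, and 0.54 to 0.59 when a library was left out. Against C5 (0.41) it was 0.17 with matched nuclei, 0.28 after centring, 0.51 with low doublet enrichment and 0.39 to 0.46 with a library left out. Against C2 (1.09) it was 0.70, 0.54, 0.69, 0.78 and 1.23 in the order given for C10, 0.89 with a pseudocount of 5, 1.16 with a mean of at least 20, 1.01 with weighting, and 1.05 to 1.11. The late maturation median against C10 (-0.18) was -0.11, -0.14, -0.082, -0.29 and -0.22 in that order. Against C5 (-0.14) it was -0.016, -0.087, 0.000185, -0.28 and -0.19, -0.16 with a mean of at least 20 and -0.10 with weighting. Against C2 (-0.65) it was -0.44, -0.48, -0.33, -0.96 and -0.72, -0.78 with a mean of at least 20 and -0.61 with weighting. With a library left out it was -0.20 to -0.17, -0.17 to -0.14 and -0.67 to -0.63.

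Of 36 genes named by rank, each in its comparison, 34 kept their sign in every alternative that tested them. Of 21 such pairs for Gata1, Tfrc, Kit, Gata2, Klf1, Stag2 and Stag1, 11 did. Gata2 kept it against all 3 clusters, while Gata1 against C10 (0.08) was -0.03 to 0.33, Tfrc (0.00) -0.11 to 0.12, Kit (0.20) -0.22 to 0.33 and Klf1 (-0.02) -0.17 to 0.15. Stk32a against C10 was 0.47 with a doublet enrichment of at most 1, and Gtpbp4 against C5 was 0.061 with matched nuclei. Of list members, Il1rl1 against C5 was -0.15, and Pax5, Mertk and Meis1 against C2 were -0.12, -0.036 and -0.35, all with matched nuclei. Cdh5 against C2 was -0.013 after quantile normalization and -0.018 with the trend removed. The doublet enrichment of C8 minus C10 (-0.0095) was -0.23 to 0.11 when a library was left out. The share of C8 (14.0%) was 6.91% among nuclei of low doublet enrichment and 18.6% among those with at least 5000 fragments, and 13.3% to 14.6% with a library left out.

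Differences between clusters were all taken within a library. No paired analysis was possible because, for replicate numbers shared by KO and WT, C8 had only 2, 8 and 2 WT nuclei, so the fit of KO against WT, its replicate block, the comparison of its effect with C5 and their alternatives were not run. Depth limits C5 most, at a median of about 4906 fragments per nucleus.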

Other observations

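Gata2 scores were set side by side in 3 Int clusters of KO and 2 of WT nuclei. In KO it had 73.9, 66.4 and 66.1 in C8 and 44.3, 39.0 and 40.4 in C10, and in WT 38.1, 38.7 and 29.7 in C9 and 16.0, 18.4 and 14.9 in C11. KO C5, an Int cluster of far fewer fragments per nucleus than C10, had 41.1, 43.0 and 42.8, which overlap the scores of C10. C10 was above C9 in every pair of libraries. Ikzf2 had the other order, with 76.1, 70.6 and 60.2 in WT C9 above 55.5, 50.3 and 51.0 in KO C8. Cbx8 had 16.4, 29.4 and 15.5 in WT C9, all below the 41.8, 36.0 and 40.7 of KO C8. Other Int clusters, and the WT nuclei of C5, were not used here. These values were set side by side after the clusters were seen. The clusters differ in makeup and in the number of nuclei, so no test was made between them.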
